A study of Mus musculus with 4 samples.

Results

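Fc receptors for immunoglobulin G and the ITAM adaptors that carry their signal were followed in sorted retinal microglia with and without deletion of TAK1. The genes are 8 of the 15586 in the deposited expression table, taken by symbol: the activating receptors Fcgr1, Fcgr3 and Fcgr4, the inhibitory receptor Fcgr2b, the adaptors Fcer1g and Tyrobp, the Tyrobp-coupled receptor Trem2, and the kinase Syk. All 8 were found. TAK1, encoded by Map3k7, is a kinase that acts between inflammatory receptors and the NF-kB and MAP kinase pathways. All mice were labelled as carrying floxed alleles of the TAK1 gene and, at 1 copy of the Cx3cr1 locus, a tamoxifen-inducible Cre (Cx3cr1CreER/+). The genotype label writes the floxed gene as Tak1 for the controls and Tak3 for both knockouts, whereas the protocol writes Tak1 for all. The mice were 2 months old. Controls (2 libraries) had been given corn oil for 5 days by intraperitoneal injection and TAK1 knockouts (2 libraries) tamoxifen at 75 mg/kg for 5 days, so effects of tamoxifen and of the deletion cannot be told apart. Each library was made from 200 cells sorted on EYFP. Cx3cr1 also drives expression in some monocytes and border macrophages, so the sort can hold more than microglia. The labels do not say whether libraries came from separate or pooled animals, and p-values therefore measure only the spread between these libraries, which may be technical.

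Antibody-coated particles bind activating Fc receptors, whose signal runs through an adaptor with an immunoreceptor tyrosine-based activation motif (ITAM). Src-family kinases phosphorylate the ITAM tyrosines, Syk docks there through its paired SH2 domains, and phagocytosis and cytokine release follow. Fcgr2b, which binds the same ligands, instead carries an inhibitory motif (ITIM) that recruits the lipid phosphatase SHIP1. In microglia, Fcer1g serves the activating Fc receptors, and Tyrobp (DAP12) serves Trem2, a sensor of lipids and apolipoproteins.

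The motifs that separate the activating from the inhibitory members are shown by their coding bases, from GENCODE M21 transcripts (GRCm38), because the activating and inhibitory sides are described apart below. Capitals mark the codons of each signalling tyrosine and of the leucine that ends its unit. The adaptors hold a pair of such units within 15 codons, at codons 65 to 79 of 86 in Fcer1g and 92 to 106 of 114 in Tyrobp, and Fcgr2b holds 1 unit, at codons 317 to 322 of 340.
Fcer1g: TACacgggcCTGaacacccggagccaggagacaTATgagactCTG
Tyrobp: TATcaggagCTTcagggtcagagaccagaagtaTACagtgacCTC
Fcgr2b: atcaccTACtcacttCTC

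Values are FPKM, fragments divided by transcript length and by the library's mapped total, so levels can be set side by side between genes. They summed to 812009 to 969700 per library, and the read depth is unknown. The targeted gene Map3k7 read 0.03 and 0 FPKM in the controls versus 0.02 and 0.08 in the knockouts, at the floor in both groups, and could not check the labels. In 2514 of the 7823 genes tested (32.1%), 1 library held over 90% of the summed FPKM, so readings near 0 are not evidence of silence. In bulk libraries, fewer cells of a type and less RNA per cell cannot be told apart.

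The inhibitory receptor stood lower in the knockouts than in the controls, without passing the test. Fcgr2b (chromosome 1, 170960558 to 170976071, GRCm38.p6) read 1114 and 1232 FPKM in controls 1 and 2, versus 474 and 406 FPKM in knockouts 1 and 2. Both knockouts lay below both controls, and the replicates of each group lay close together, at 1173 ± 83.5 and 440.0 ± 48.1 FPKM (SD, n = 2 each). The knockout mean was 0.375 of the control mean. On the log2(FPKM + 1) scale, which understates the change of low genes, the difference was -1.42 (SE 0.42, 95% interval -2.46 to -0.37). With Benjamini-Hochberg adjustment over all genes it did not pass the limma test (adjusted p = 0.559), although its unadjusted p was under 0.05. Its difference stayed negative in all 15 alternative settings, between -2.30 and -1.14. Because the groups did not overlap, only rescaling the libraries could have turned its sign. The difference was -1.25 with equal library sums, -2.30 with median ratio scaling and -1.14 with quantile normalization. In the alternatives that kept all libraries, its limma adjusted p was 0.398 to 0.761.

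Among the activating receptors, the knockout libraries differed from each other more than the groups did. Fcgr3, the low-affinity receptor of most myeloid cells (chromosome 1, 171051169 to 171065915), read 852 and 966 FPKM in the controls, then 2072 in knockout 1 and 502 in knockout 2. The controls lay between the knockouts, with knockout 1 higher than knockout 2 by 2.04 log2 units. The median absolute difference between the knockouts over the 1177 genes whose mean was 100 FPKM or higher was 0.74 log2 units, and the median signed one was -0.08. Fcgr3 did not pass (log2 difference 0.17, SE 0.70, limma adjusted p = 0.932), and the interval, -1.54 to 1.88, holds sizeable differences in both directions. Its direction turned to lower without knockout 1 (-0.85) and was 1.19 without knockout 2.

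Fcgr1, the high-affinity receptor (chromosome 3, 96282909 to 96293969), read 102 and 52.0 FPKM in the controls versus 92.35 and 7.37 in the knockouts, so only knockout 2 lay apart. The log2 difference was -1.40 (SE 1.52, limma adjusted p = 0.698), 0.34 without knockout 2 and -3.14 without knockout 1. Fcgr4, which binds IgG2a and IgG2b with intermediate affinity (chromosome 1, 171018926 to 171029761), was high in 1 library of each group. It read 225 and 0.48 FPKM in the controls versus 92.38 and 0.82 in the knockouts, with a log2 difference of -0.49 (SE 3.01, limma adjusted p = 0.960). Leaving out single libraries moved it from -4.12 (without control 2) and -3.33 (without knockout 1) to 2.35 (without knockout 2) and 3.14 (without control 1), so these libraries set no direction for Fcgr4.

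**Figure D1:**
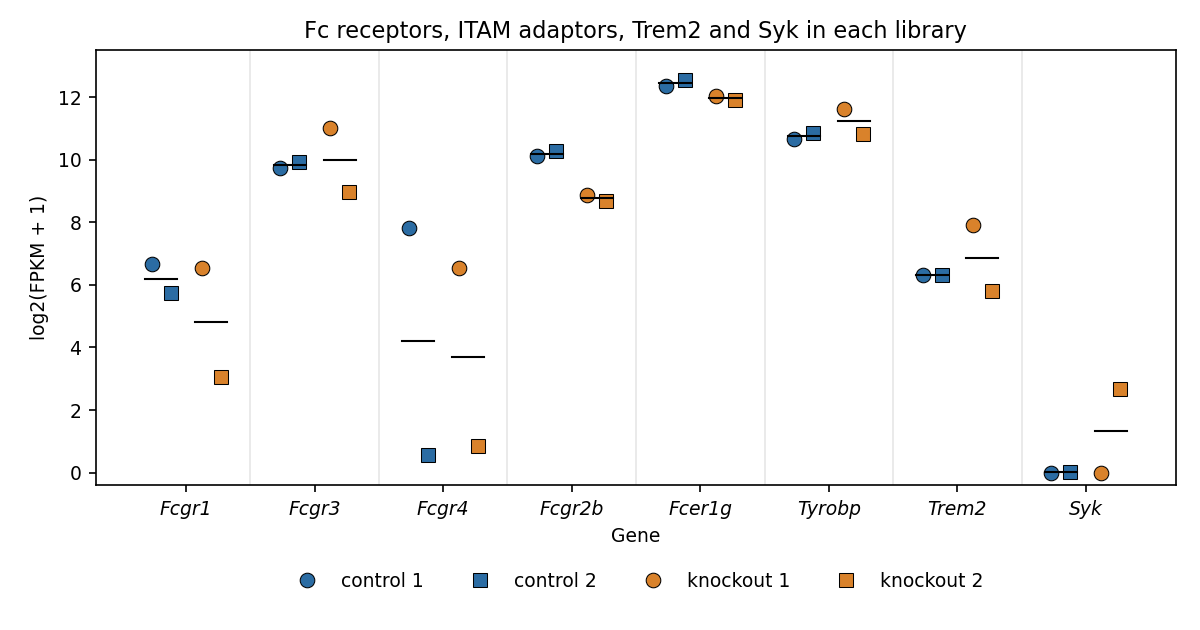
Each point is the log2(FPKM + 1) value of 1 library for 1 gene, with circles for replicate 1, squares for replicate 2, and a short line at each group's mean. The knockouts lie below both controls for Fcgr2b and Fcer1g. Knockout 1 lies above knockout 2 for every gene but Syk, by the least for Fcer1g and Fcgr2b.

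Fcgr2b and Fcgr3 are near copies over their extracellular parts, which bears on how reads between them could be assigned. Over an aligned stretch of 534 coding bases their transcripts were 93.4% identical, and their longest identical run was 129 bases. Of the distinct 50-base windows in their protein-coding transcripts, 166 were shared, 10.2% of those of Fcgr3 and 4.48% of those of Fcgr2b, whereas Fcgr1 and Fcgr4 shared 0 with any of the other 3. How the authors assigned reads that fit both genes is not given in the sources used here, so part of either value is uncertain. The most alike 150 coding bases (256 to 405 of Fcgr2b and 241 to 390 of Fcgr3) are shown with their 1 mismatch in capitals.
Fcgr2b: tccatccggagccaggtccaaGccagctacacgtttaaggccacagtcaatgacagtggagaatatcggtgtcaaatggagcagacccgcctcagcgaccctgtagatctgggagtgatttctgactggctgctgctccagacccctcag
Fcgr3: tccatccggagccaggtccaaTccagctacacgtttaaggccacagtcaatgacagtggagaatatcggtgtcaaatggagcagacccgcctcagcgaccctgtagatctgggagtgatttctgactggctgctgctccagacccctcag
An antisense gene also overlaps Fcgr2b in GENCODE M21, and whether strand was used in counting is not given in the sources used here.

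Shares within a library do not depend on how libraries are scaled to each other. Fcgr2b made up 48.6% and 54.8% of the summed FPKM of the 4 Fc receptors in the controls, then 17.4% in knockout 1 and 44.3% in knockout 2. Both knockouts lay below both controls, but knockout 2 lay closer to the controls than to knockout 1. The group means were 51.7 ± 4.36% and 30.8 ± 19.1% (SD, n = 2 each), a difference of -20.8 percentage points, which was -7.33 without knockout 1 and -34.3 without knockout 2. Fcgr3 took the opposite place, with 37.2% and 42.9% in the controls versus 75.9% and 54.8% in the knockouts. The ratio of Fcgr3 to Fcgr2b was 0.765 and 0.784 in the controls, then 4.37 in knockout 1 and 1.24 in knockout 2. The summed receptor level was not ordered by group, at 2293 and 2250 FPKM in the controls versus 2731 and 916 in the knockouts. These shares and the ratios below were chosen with earlier results of these data known and are given with no test.

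**Figure D2:**
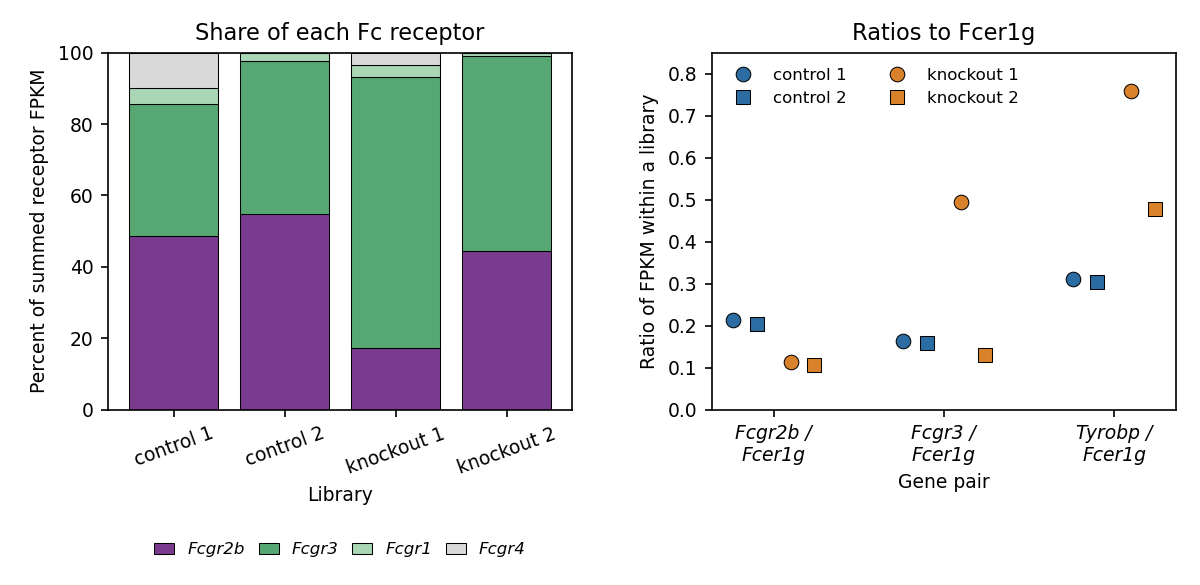
Left, stacked bars give each receptor's percent of the summed FPKM of Fcgr1, Fcgr2b, Fcgr3 and Fcgr4 in a library; right, points give the ratio of a gene's FPKM to that of Fcer1g in the same library. The Fcgr2b share is lowest in knockout 1 (17.4%), and the ratio of Fcgr2b to Fcer1g is 0.203 to 0.214 in the controls and 0.106 to 0.113 in the knockouts.

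The adaptor Fcer1g, the common gamma chain, was the most abundant member. Fcer1g (chromosome 1, 171229572 to 171234349) read 5212 and 6073 FPKM in the controls versus 4201 and 3841 in the knockouts, and ranked between 17 and 20 of all genes in every library. Both knockouts lay below both controls, at 5642 ± 609 and 4021 ± 255 FPKM (SD, n = 2 each). The log2 difference was -0.49 (SE 0.19, 95% interval -0.95 to -0.03) and did not pass (limma adjusted p = 0.629), with an unadjusted p under 0.05. It was -0.08 after quantile normalization and -1.37 after median ratio scaling, so its size rests on the scaling. Fcgr2b stood lower also against this adaptor: the ratio of Fcgr2b to Fcer1g was 0.214 and 0.203 in the controls versus 0.113 and 0.106 in the knockouts.

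Tyrobp, the adaptor of Trem2 and related receptors (chromosome 7, 30413782 to 30417582), read 1621 and 1843 FPKM in the controls, then 3184 in knockout 1 and 1833 in knockout 2. Knockout 2 lay between the controls, and only knockout 1 stood apart. The log2 difference was 0.48 (SE 0.35, limma adjusted p = 0.698), 0.08 without knockout 1, 0.88 without knockout 2 and -0.40 after median ratio scaling. Within a library the adaptors shifted against each other: the ratio of Tyrobp to Fcer1g was 0.311 and 0.303 in the controls versus 0.758 and 0.477 in the knockouts. Together they read 6833 and 7916 FPKM in the controls versus 7386 and 5675 in the knockouts, with overlapping groups.

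Trem2 (chromosome 17, 48346401 to 48352276) read 78.8 and 78.7 FPKM in the controls, then 239.7 in knockout 1 and 55.55 in knockout 2. The controls were nearly equal and lay between the knockouts. The log2 difference was 0.55 (SE 1.08, 95% interval -2.09 to 3.18, limma adjusted p = 0.818). It was -0.50 without knockout 1, 1.59 without knockout 2 and -0.32 after median ratio scaling. The ratio of Trem2 to Tyrobp was 0.0486 and 0.0427 in the controls versus 0.0753 and 0.0303 in the knockouts, again with the controls between. Apoe, which encodes a lipoprotein ligand of Trem2, read 4904 and 4968 FPKM in the controls, then 9190.4 in knockout 1 and 1647 in knockout 2, so that, as for Trem2 and Fcgr3, knockout 1 was highest and knockout 2 lowest.

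Syk (chromosome 13, 52582610 to 52648792), the kinase on which the ITAM signal converges, read 0 and 0.01 FPKM in the controls, then 0 in knockout 1 and 5.42 in knockout 2. It reached the filter of a mean of 1 FPKM through knockout 2 alone, so its difference (1.33, SE 1.60, limma adjusted p = 0.702) describes that library. Without knockout 1 the fit calls Syk higher (2.68, limma adjusted p = 0.0432), with the lone knockout library assumed to vary like the controls, and without knockout 2 Syk was no longer tested. Given the many single-library values in the table, these readings do not show that the kinase was lacking in the other 3 libraries.

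All 8 members passed the filter on low values, 6 of them at 1 FPKM or more in every library. None passed the adjusted test in either direction (0% of the 7823 genes tested were called higher and 0% lower; smallest limma adjusted p over all genes, 0.547). At an unadjusted limma p under 0.05, 2 members were lower and 0 higher, where 1.62% of all tested genes were lower (127) and 6.07% higher (475). A separate fit of the 1177 genes averaging 100 FPKM or more had 71 lower and 47 higher at that level. Fcgr2b stayed under that level in 12 of 15 alternatives and Fcer1g in 5 of 15, and neither did with an untrended variance. Quantile normalization called 2 genes higher and 3 lower over the whole table, none of them a member. Both knockouts lay below both controls in 2 of 8 members and above in 0, where 11.4% of all tested genes lay below and 27.8% above. Among genes whose mean was 100 FPKM or higher, 26.5% lay below and 19.0% above, where of the 5 members at that level (Fcgr2b, Fcgr3, Fcer1g, Tyrobp and Trem2) 2 lay below and 0 above. An exact two-sided permutation test of 2 against 2 libraries cannot go below p = 0.333, and that is its smallest value for any member.

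The median log2 difference of the 8 members was -0.16, against 0.94 for all tested genes and -0.11 for genes averaging 100 FPKM or more. Scaling moved the median of all genes to 0.32 (median ratio) and 0.12 (quantile normalization), and the genes with an unadjusted p under 0.05 from 475 higher and 127 lower to 269 and 361, and to 238 and 158. Relative to the median of all genes, Fcgr2b stood at -2.35, at -2.61 after median ratio scaling and at -1.27 after quantile normalization. Fcer1g stood at -1.42, -1.68 and -0.20, and Tyrobp at -0.46, -0.72 and 0.50 in the same order. Fcgr2b was thus below the bulk of genes by over 1 log2 unit in each of these 3, while Tyrobp changed sides. Relative to the median of genes averaging 100 FPKM or more, in a separate fit, Fcgr2b stood at -1.30, Fcer1g at -0.38 and Tyrobp at 0.59.

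**Figure D3:**
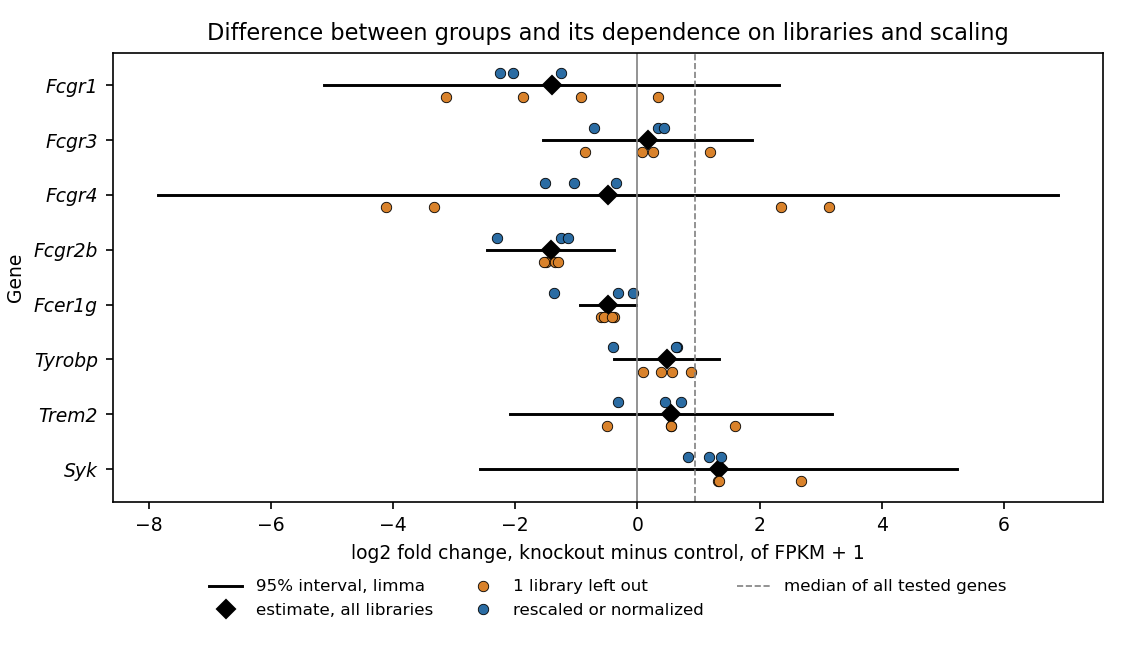
Black diamonds and lines give the log2 difference of each member (knockout minus control, FPKM + 1) with its 95% interval from limma; orange points leave out 1 library, blue points rescale the libraries to the same sum, by median ratios or by quantiles. The points for Fcgr2b all lie between -2.30 and -1.14, whereas those for Fcgr4 spread from -4.12 to 3.14.

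The other genes of the pathway were followed through 107 listed genes, of which 100 were in the table and 73 passed the filter. Both knockouts lay above both controls in 17 (23.3%) and below in 15 (20.5%), against 27.8% and 11.4% of all tested genes. Among genes averaging 100 FPKM or more, those shares were 19.0% and 26.5%. Their median log2 difference was 0.19. None passed the adjusted limma test (smallest adjusted p = 0.559), and at an unadjusted p under 0.05, 7 were lower (9.59%) and 0 higher, against 1.62% and 6.07% of all tested genes. These 7 were all receptors: 5 of the list of ITIM receptors and 2 of the ITAM-coupled receptors. At the same p level, a separate fit of the 1177 genes averaging 100 FPKM or more had 71 lower and 47 higher. The 7 genes were counted in the fit of all tested genes, not in that one.

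Receptors listed with an ITIM, the motif type of Fcgr2b, lay below both controls in 6 of 13 tested and above in 4. The shares were 11.4% and 27.8% for all tested genes, and 26.5% and 19.0% for those averaging 100 FPKM or more. The list had a median log2 difference of -0.18. In 2 of the 4 above, neither control reached 1 FPKM. Clec4a3 and Clec4a2, C-type lectins of the Dcir family, stood far lower in the knockouts. Clec4a3 read 701 and 816 FPKM in the controls versus 135 and 154 in the knockouts, and Clec4a2 read 469 and 290.4 against 31.3 and 0.63. Lilrb4a, a leukocyte immunoglobulin-like receptor, read 687 and 382 FPKM in the controls versus 133 and 24.5 in the knockouts. Their limma adjusted p-values were 0.559, 0.559 and 0.570, so none passed. Cd72, also among the 4 highest of the list, read 496 and 446 FPKM against 506 and 343 and overlapped. The other 2 with an unadjusted p under 0.05, Clec4a1 and Cd300lf, are named after their values were seen. A script found the ITIM pattern (a tyrosine, preceded at the second residue before it by serine, isoleucine, leucine or valine and followed at the third after it by isoleucine, leucine or valine) in coding transcripts of 15 of the 16 listed genes in the table. It was not found for Clec4a1, which still counts in the list. The search covered whole coding sequences, and no rate among other genes was taken. A match therefore does not show a working motif. The Dcir lectins resemble each other, so reads between them may be uncertain.

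The list of ITAM-coupled receptors other than Trem2 had 16 tested genes, and also took in the adaptor Hcst and the receptor kinase Csf1r. In this list 2 genes (Siglech and Csf1r) were above both controls and 4 below, with a median of -0.51. Over the whole tested set, the rates were 27.8% above and 11.4% below. The Tyrobp-coupled microglial lectin Siglech read 39.8 and 163 FPKM in the controls versus 276 and 368 in the knockouts. Cd300c2 read 559 and 43.3 FPKM against 365 and 318, the adaptor Hcst (DAP10) 351 and 92.6 against 207 and 206, and Clec4n (Dectin-2, an Fcer1g partner) 103 and 458 against 110.2 and 89.8. Those 3 overlapped between groups. The 2 with an unadjusted p under 0.05 were Sirpb1a and Sirpb1b, near copies of each other and named after their values were seen. Sirpb1a read 75.9 and 35.8 FPKM in the controls versus 0.06 and 0.20 in the knockouts. Among other Fc-binding proteins, 7 of 9 in the table read under 1 FPKM in every library. Fcgrt, the neonatal Fc receptor that recycles IgG, read 0.08 and 0.04 FPKM in the controls versus 37.6 and 6.73 in the knockouts, and Fcrl1 read 52.4 FPKM in control 1 and 0.35 FPKM or less in the other libraries.

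Kinases and phosphatases around the motifs gave few ordered genes. Lyn, the Src-family kinase that phosphorylates both ITAM and ITIM tyrosines, read 125 and 277 FPKM in the controls versus 39.4 and 52.5 in the knockouts (limma adjusted p = 0.698) and was the only 1 of 5 tested in its list below both controls, with 0 above. Of 9 tested genes in the list of phosphatases and related regulators, 2 lay above and 1 below. Among all tested genes, 27.8% lay above and 11.4% below. Ptpn6, which encodes the phosphatase SHP-1, read 15.8 and 24.7 FPKM in the controls versus 78.5 and 54.5 in the knockouts, whereas Ptprc (CD45) read 251 and 175 against 78.1 and 67.7. The medians of these lists were 1.06 and 0.38.

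Downstream of Syk, 7 of 24 tested genes lay above both controls and 2 below, near the 27.8% and 11.4% of all tested genes. The median was 0.95, next to that of all genes (0.94). In 5 of the 7, neither control reached 1 FPKM. Lat2, an adaptor of ITAM receptors, read 176 and 38.9 FPKM in the controls versus 379.9 and 202 in the knockouts. The GTPase Rac1 read 107 and 0.86 against 148 and 176, and the scaffold Lcp2 (SLP-76) 119.5 and 15.3 against 228 and 49.5. Of the ligands and sheddases of Trem2, Adam10, which cleaves the receptor from the surface, read 206 and 198 FPKM in the controls versus 97.1 and 141 in the knockouts, Adam17 read 5.12 and 0.72 against 19.4 and 66.2, and the ligand Clu 48.6 and 81.9 against 87.0 and 3.32. No gene of these lists passed the adjusted test.

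**Figure D4:**
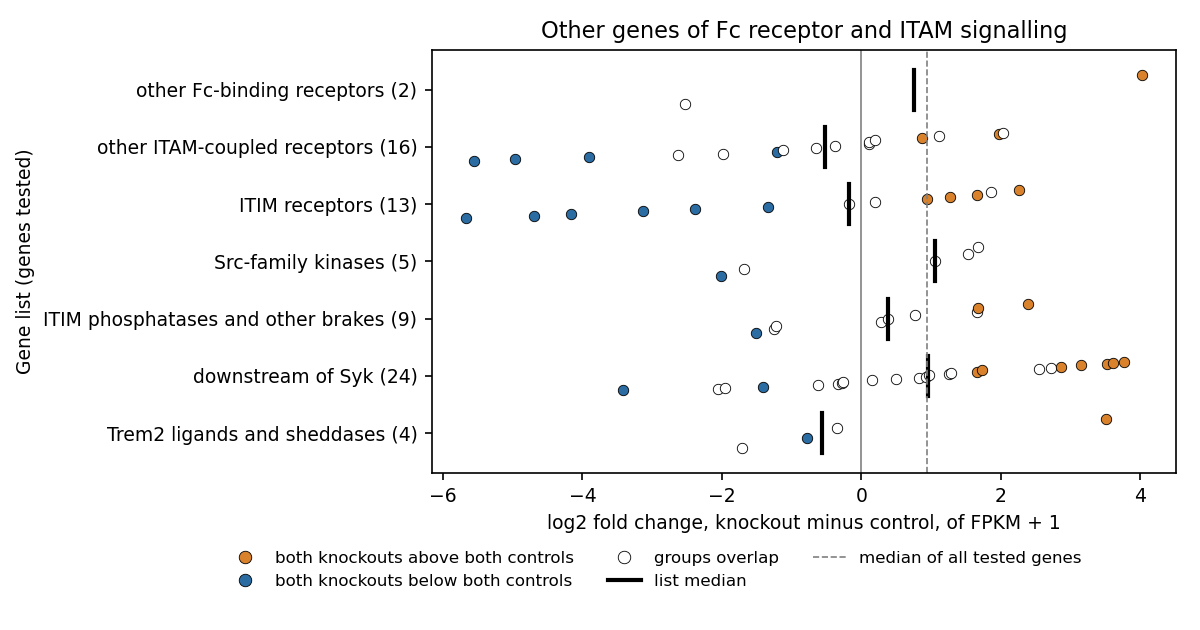
Each point is the log2 difference (knockout minus control, FPKM + 1) of 1 tested gene outside the 8 members, in rows by list, with the list median as a bar and the median of all tested genes (0.94) as a dashed line. The 6 ITIM receptors below both controls lie at the left of their row, and the 7 genes downstream of Syk above both controls all lie to the right of the dashed line.

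Marker genes were read for the cells that the sort could hold. Of all tested genes, 27.8% lay above both controls and 11.4% below, and of those averaging 100 FPKM or more, 19.0% and 26.5%. Both knockouts exceeded both controls for 8 of 12 microglia markers and lay under them for 1, and each marker reached 1 FPKM in at least 1 library. P2ry12 read 569 and 790.3 FPKM in the controls versus 1794 and 829.5 in the knockouts, and Gpr34 read 927 and 481 versus 1862 and 1154. Monocyte markers (7 of 9 in the table) summed to 405 and 442 FPKM in the controls versus 52.1 and 120.3 in the knockouts, but of 5 tested only Ccr2 lay below both controls (316 and 151 against 1.81 and 0.59). Nearly all of the sum in knockout 2 was F13a1, at 119 FPKM there and 0.18 FPKM or less elsewhere. The 6 dendritic cell markers in the table summed to 527 and 889.6 FPKM against 1.25 and 2.22, nearly all of it Cd209a in each library. Both tested lay below both controls, but the second, Clec10a, did so near the floor, at 24.1 and 0.1 FPKM against 0 and 0. Xcr1 was at 0 throughout (it and F13a1 are named after their values were seen). Border macrophage markers (9 of 9) summed to 2224 and 1640.2 FPKM against 224 and 752, but only Ms4a7 of 8 tested lay below both controls, and the sums without it overlapped (610 and 93.5 against 35.03 and 597). Pf4, for one, read 367 and 1.04 against 0.51 and 303. Both knockouts lay below both controls in these 3 sums, as in Fcgr2b, Fcer1g, Clec4a2, Clec4a3 and Lilrb4a. Without Ccr2, its leading gene, the monocyte sums overlapped (88.6 and 291 FPKM in the controls versus 50.3 and 120 in the knockouts). Without Cd209a the dendritic cell sums were 24.2 and 3.82 against 0.06 and 0.12. The part of these cells in the results for the named genes was not tested. Mast cell and basophil markers summed to at most 0.08 FPKM per library (2 of 6 in the table), endothelial ones to at most 0.45 (4 of 6) and neutrophil ones to at most 17.1 (3 of 9). Of 5 lymphocyte and NK markers in the table, only Cd79b passed the filter, at 0.25 and 105 FPKM in the controls versus 119 and 196 in the knockouts. The 7 Müller glia markers were led by Apoe, and without it summed to 254 and 429 FPKM in the controls versus 946 and 634 in the knockouts. All 7 were tested, with 1 above both controls (Glul, 84.6 and 318 against 774 and 599) and 1 below. The 15 rod markers summed to 2278 and 3346 FPKM in the controls versus 6442 and 9440.4 in the knockouts, and 12 of them lay above both controls and 0 below.

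Genes nearest to the members were found by the distance between log2(FPKM + 1) values over the 4 libraries, for the 6 members at 1 FPKM or more in each. This distance uses level and pattern together, and with 4 libraries it is a description only. Fcer1g was followed most closely by Gpx1, a glutathione peroxidase gene (5307 and 6057 FPKM in the controls, 3992 and 3969 in the knockouts), at a distance of 0.0916 log2 units. Fcgr2b lay next to Sem1, Myl12a and Evi2a (0.464, 0.569 and 0.595). Fcgr3 lay next to Selenop, P2ry12 and Rgs10 (0.967, 0.996 and 1.03), of which P2ry12 is a purinergic receptor of resting microglia that read 569 and 790.3 FPKM in the controls versus 1794 and 829.5 in the knockouts. Tyrobp lay next to the tetraspanin gene Cd9 (0.578), then Sdcbp and Sh3bgrl3. Trem2 lay next to Ssr2, Gpx4 and Ctsa (0.742, 0.750 and 0.809), and Fcgr1 next to Pebp1, Txnl1 and Mrpl21 (0.993, 1.08 and 1.24).

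Fcgr2b, Fcgr4, Fcgr3 and Fcer1g lie within 274 kb of each other on chromosome 1 (170960558 to 171234349), and only Fcgr2b and Fcer1g of them had both knockouts below both controls. The 120 bases before their RefSeq starts (GRCm38.p6, minus strand) are shown because they are the members whose groups did not overlap. Capitals mark GGAAGT or its reverse complement ACTTCC, the letters at the core of many ETS-family sites such as those of the myeloid factor PU.1.
Fcgr2b, chr1:170976072-170976191: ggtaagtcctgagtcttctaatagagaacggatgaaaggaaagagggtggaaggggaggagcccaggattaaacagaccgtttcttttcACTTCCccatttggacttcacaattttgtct
Fcer1g, chr1:171234350-171234469: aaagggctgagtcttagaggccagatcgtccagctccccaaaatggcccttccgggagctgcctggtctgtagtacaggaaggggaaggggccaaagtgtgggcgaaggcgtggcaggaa
Of 7 members with an entry, Fcgr1, Fcgr4 and Fcgr2b held these letters on either strand within 250 bases before the start, where 22.2% of 27025 genes did. The longer GAGGAAGT, which contains the shorter one, was held by Fcgr4 alone, and by 2.79% of all genes. A match says only that the letters are there.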

How the data were processed

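RNA from 200 sorted retinal cells per library was reverse-transcribed by SMART-seq, then PCR-amplified (per the labels' protocols). The authors' deposited values are FPKM, rounded to 2 decimals, per the file header; per the submitters' processing notes they rest on mm10, and the sources used here do not give the aligner, quantifier or annotation. Depth is unknown: 206 to 427 genes per pair of libraries read 0.1 to 1 FPKM in both, but only 6.09% to 13.8% of their ratios lay near the most common one, so no reads were recovered. No molecular identifiers are named.

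The 7823 genes averaging 1 FPKM or more were compared on log2(FPKM + 1), a pseudocount of 1, with limma 3.58.1 in R 4.3.3 (trended variance, 2 residual and 3.99 prior degrees of freedom, Benjamini-Hochberg, threshold 0.05), and the code was tested on simulated data. Intervals are 95%. Named genes were the 8 members, up to 4 per pathway list and 3 per marker list by mean FPKM, and the 3 genes nearest to a member; some that the rule names are given only by count or sum, or are not reported here, and a few others are marked as named after their values were seen. Members and lists were chosen with earlier results of these data known. Sequences come from GENCODE M21 and RefSeq (GRCm38.p6), and were read with Biopython 1.88. Figures were drawn with matplotlib 3.10.9.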

Additional observations from a re-analysis of the deposited data

How the results depend on the processing

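No gene was called in either direction with pseudocounts of 0.1 or 5 FPKM, no filter, a mean of at least 5 FPKM, a mean of at least 100 FPKM (added after the data were seen), equal library sums, median ratio scaling, or an untrended or robust variance. Quantile normalization called 2 genes higher and 3 lower, and an unadjusted p under 0.05 takes in 475 and 127. Leaving out 1 library gave 0 to 1306 higher and 0 to 5 lower, with 697 and 4 without knockout 1, 1306 and 5 without knockout 2, and 0 without either control. With the replicate number as a block, 15 were called higher and 20 lower on 1 residual degree of freedom. Same-numbered libraries deviated together with r = 0.0166 across genes, and nothing in the labels pairs them. The block called no member.

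Over 12 to 15 alternatives per member, Fcgr2b, Fcer1g and Syk kept their direction in each. For Fcgr2b and Fcer1g, whose groups did not overlap, only the rescalings could have turned it. Syk rested on knockout 2 alone and had no test without that library or at a mean of at least 5 FPKM. Median ratio scaling reversed Fcgr3 (-0.71), Tyrobp (-0.40) and Trem2 (-0.32). Leaving out 1 library gave -3.14 to 0.34 for Fcgr1, -0.85 to 1.19 for Fcgr3, -4.12 to 3.14 for Fcgr4 and -0.50 to 1.59 for Trem2. The cause was not tested. The Fcgr2b share difference was -24.7 percentage points over Fcgr2b and Fcgr3 only. At a mean of at least 5 FPKM, 13 other pathway genes lay above and 15 below.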
